A study of Mus musculus with 4 samples.

Results

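The genes described here code for the secreted and membrane proteases that cut the extracellular matrix and for the proteins that block them. They were taken by name as the protein-coding genes whose symbol begins with Mmp and a digit, with Timp and a digit, or with Adamts. This gave 50 genes out of 55573 in the table, namely 22 matrix metalloproteinases (Mmp), 4 tissue inhibitors of metalloproteinases (Timp), 19 Adamts proteases and 5 Adamts-like genes (Adamtsl). Ribosome-protected signal was measured in primary myoblasts that grew out of digested hind-limb muscle of 3-week-old mice and were kept with FGF, the growth factor that holds them in proliferation, until day 2. There were 2 WT libraries and 2 libraries with the genotype label eIF5A knockout (KO). In the study the KO mice are Pax7-CreERT2/+;eIF5A f/f animals given tamoxifen and the controls are their WT littermates. The exact control genotype is not stated for these libraries. CreERT2 is made only where Pax7, the marker of muscle stem cells, is active, so other cells of a culture would keep Eif5a, and the sources do not describe a sort of the cultured cells.

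Each library held between 642429 and 704006 reads recovered from the deposited values, of which 41.5% and 33.9% lay on protein-coding genes in the WT libraries and 65.4% and 59.2% in the KO-labelled libraries. The targeted gene Eif5a showed no loss under the KO label. WT libraries 1 and 2 had 34.9 and 65.2 RPKM of it, and the KO-labelled libraries 60.3 and 59.4 RPKM (log2 fold change 0.32, standard error (SE) 0.48, limma adjusted p = 0.839). RPKM is reads per kilobase of gene, scaled by library size. The group is therefore called by its label, and every difference is given as the KO-labelled libraries relative to WT. The labels do not say whether the libraries of a group came from separate cultures or animals, so a p-value here measures only the spread between these samples.

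Matrix metalloproteinases are made as inactive precursors and held in check by Timps, which bind the catalytic zinc. In skeletal muscle, stem cells and the fibroblast-like cells around them use these enzymes to open the basal lamina, to release growth factors and to migrate to an injury. Adamts enzymes cut proteoglycans such as versican and aggrecan or trim procollagens, and the Adamts-like proteins keep the matrix-binding part of an Adamts without its protease part. The catalytic zinc of both enzyme families is held by histidines in the metzincin zinc-binding motif. A search asked for the codons of its histidines and glutamate, and for a glycine or asparagine codon before the last histidine. It matched 22 of 22 Mmp genes, 18 of 19 Adamts genes, 0 of 4 Timp genes and 0 of 5 Adamtsl genes. Adamts8 was the Adamts gene without a match, and its histidines were not searched on their own. The sites of the 5 enzymes with the highest signal, read from the coding sequences of GENCODE M21, are shown to set the catalytic sites of these enzymes side by side, with the codons of the zinc-binding histidines and of the catalytic glutamate in capitals.
Mmp3: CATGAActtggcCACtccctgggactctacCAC
Mmp2: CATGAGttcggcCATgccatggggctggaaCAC
Adamts1: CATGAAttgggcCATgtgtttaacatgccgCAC
Mmp14: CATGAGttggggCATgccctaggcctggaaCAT
Adamts4: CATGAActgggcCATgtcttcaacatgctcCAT

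Of the 50 members, 42 had at least 1 read and 29 reached a mean of 1 RPKM over the 4 libraries, the minimum for the test. These were 14 Mmp, 3 Timp, 8 Adamts and 4 Adamtsl genes. Another 13 had reads below that minimum, led by Adamts12 with 31 reads in all. The remaining 8 (Adamts13, Adamts16, Adamts17, Adamts18, Adamts19, Mmp1b, Mmp7 and Mmp21) had none, which at the floor of 3 reads sets only an upper limit on their level. The median number of reads of a tested member was 97 in all, and 5 of them had fewer than 20.

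No member passed an adjusted p of 0.05 in either direction by limma, nor by limma-voom on the recovered reads, and 3 had an unadjusted p under 0.05 (1 lower and 2 higher), a level that 4.46% of all genes reached as lower and 2.86% as higher. Over all 11363 genes tested, 0.0968% were called lower and 0.0088% higher by the same rule, and none in either direction under 12 of the 17 alternatives to this fit. The adjusted p-values of the 29 members ran from 0.672 to 0.989 (limma, Benjamini-Hochberg over all genes tested). With a fold change beyond 2 at an unadjusted p under 0.05, 1 member was lower (Mmp11) and 2 were higher (Adamtsl3 and Mmp10), which is 3.45% and 6.90% of the tested members, against a background of 4.29% lower and 2.67% higher over all genes. No overlap between the groups was seen for 4 members that were lower under the KO label (Mmp11, Adamts2, Adamts10 and Adamtsl4; 13.8%) and for 6 that were higher (Mmp3, Mmp10, Mmp13, Adamts5, Adamtsl1 and Adamtsl3; 20.7%). The background for such separation was 20.3% lower and 20.1% higher, so the members' share was near the background in the higher direction and under it in the lower one. The log2 fold change was above 0 for 16 members and below 0 for 13, with a median of 0.10 beside 0.00 for all genes tested. With 2 libraries per group, the smallest p that an exact two-sided permutation test allows is 0.333.

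**Figure D1:**
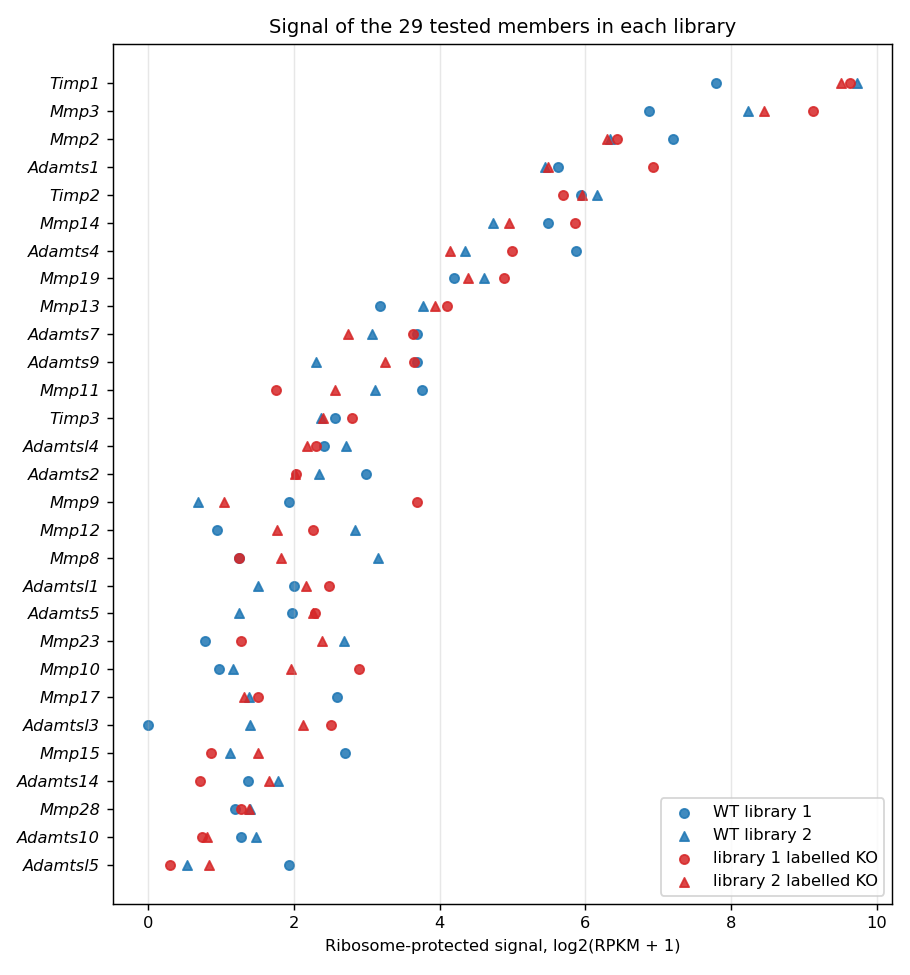
Ribosome-protected signal of the 29 tested members as log2(RPKM + 1), 1 row per gene from the highest mean to the lowest, with 1 point per library (blue for WT, red for the KO-labelled libraries, circles for library 1 and triangles for library 2). Timp1 and Mmp3 stand above the rest, and red and blue points interleave in most rows.

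The inhibitors were described first, since they carried the highest single value. Timp1 (chromosome X, 20870166 to 20874735, GRCm38), a broad inhibitor of secreted metalloproteinases that is also a growth-promoting factor, had 220.4 and 846 RPKM in WT libraries 1 and 2 and 791 and 728 RPKM in KO-labelled libraries 1 and 2. WT library 1 was the low sample, and the other WT library lay above both KO-labelled libraries, so the groups overlapped. The log2 fold change of 0.81 had an SE of 0.78, and without WT library 1 it was -0.16. It was 1.87 with quantile normalization (unadjusted p = 0.0247), and 1.89 after scaling to an equal RPKM sum (unadjusted p = 0.0201), where the median of all genes moved to 0.81 (limma). By mean signal per gene length Timp1 ranked 8 among all protein-coding genes, and per length of coding sequence it ranked 28. Timp2, which both inhibits Mmp2 and helps Mmp14 to activate it, had 60.5 and 70.3 RPKM in WT against 50.9 and 61.0 RPKM. These groups overlapped as well (log2 fold change -0.22, SE 0.43). Timp3, the inhibitor that stays bound to the matrix, had 4.89 and 4.17 RPKM against 5.96 and 4.26 RPKM, also with overlap. Timp4 had 4 reads in all and was not tested. Together the Timp genes took 35.5% and 61.7% of the summed RPKM of all 50 members in the WT libraries and 46.5% and 56.4% in the KO-labelled libraries.

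Among the Mmp, Adamts and Adamtsl genes, Mmp3, stromelysin 1, was the most read. Mmp3 (chromosome 9, 7445822 to 7455975) cuts many matrix proteins and activates other Mmp precursors. It had 116 and 301 RPKM in WT (126 and 255 reads) and 557 and 349 RPKM in the KO-labelled libraries (910 and 508 reads). Both KO-labelled libraries lay above both WT libraries, by little in the nearest pair. The means were 208 ± 130 and 453 ± 147 RPKM (SD, n = 2), the ratio of the means was 2.18, and the log2 fold change was 1.23 (SE 0.66, limma adjusted p = 0.686). Leaving out WT library 1 gave 0.55, and leaving out WT library 2 gave 1.92. Other scalings gave 1.96 (quantile normalization, unadjusted p = 0.0180), 1.85 (the same sum of reads, unadjusted p = 0.0215) and 2.31 (the same sum of RPKM, unadjusted p = 0.00721), by limma, with adjusted p-values from 0.289 to 0.672. The same protein-coding sum gave 1.12, and limma-voom on the recovered reads gave 1.22 (unadjusted p = 0.0357, adjusted p = 0.450). The same sum of reads moved the median of all genes to 0.47. Of the 28-base words in its coding sequence, 20.2% also occur in Mmp10 or in the pseudogenes Gm15242 and Gm15244, so a part of its reads could not be assigned by sequence alone.

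Mmp10, stromelysin 2, is the close relative of Mmp3 and the next member after it on the chromosome (chromosome 9, 7502352 to 7510240). It had 0.963 and 1.23 RPKM in WT, from 1 read in each library, and 6.40 and 2.88 RPKM in the KO-labelled libraries, from 10 and 4 reads. The groups did not overlap (log2 fold change 1.36, SE 0.50, unadjusted p = 0.0351, limma adjusted p = 0.672). Counted over the groups and scaled by library size, 14 reads against 2 gave a ratio of 4.38, with an exact 95% counting interval of 1.01 to 39.7. Such intervals, like the floor of 3 reads, hold counting error alone. In Mmp10, 15.3% of the 28-base words are shared with Mmp3, whose reads outnumbered those of Mmp10 in every library.

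Mmp11, stromelysin 3, is made mainly by fibroblasts and is activated inside the cell by furin. Its values lay the other way, at 12.5 and 7.64 RPKM in WT (21 and 10 reads) against 2.38 and 4.90 RPKM in the KO-labelled libraries (6 and 11 reads). The groups did not overlap, with means of 10.1 ± 3.46 and 3.64 ± 1.78 RPKM (SD, n = 2) and a log2 fold change of -1.28 (SE 0.46, unadjusted p = 0.0336, limma adjusted p = 0.672). Mmp11 (chromosome 10, 75923222 to 75936496) overlaps Chchd10 on the other strand, which had 23, 6, 13 and 13 reads in the same order of libraries, and the strand of counting is not stated. With any 1 library left out its log2 fold change lay between -1.68 and -0.87, with unadjusted p-values from 0.0802 to 0.238. It was -0.77 with the same sum of reads (unadjusted p = 0.190) and -0.40 with the same sum of RPKM (unadjusted p = 0.600), by limma.

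The gelatinases and collagenases did not separate as classes. Mmp2, the gelatinase of fibroblasts and myoblasts, had 146 and 79.96 RPKM in WT against 85.7 and 77.9 RPKM, which placed WT library 1 apart, with the other 3 libraries between 77.9 and 85.7 RPKM. Its log2 fold change was -0.40 (SE 0.50) and without WT library 1 it was 0.03. Mmp9, the gelatinase of leukocytes and activated cells, rested on 1 library, with 6, 1, 38 and 3 reads. The 2.81 and 0.600 RPKM of WT enclosed the 1.05 RPKM of KO-labelled library 2, while KO-labelled library 1 had 11.8 RPKM. Mmp13, the main interstitial collagenase of mice, had 8.07 and 12.7 RPKM in WT against 16.1 and 14.4 RPKM, without overlap but with a log2 fold change of 0.54 and an SE of 0.41. The same sum of reads moved it to 1.11 (unadjusted p = 0.0254) and the same sum of RPKM to 1.54 (unadjusted p = 0.0416), by limma. Mmp8, the neutrophil collagenase, had at most 9 reads in a library.

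The other tested metalloproteinases overlapped between the groups. Mmp14, the membrane-type enzyme that activates pro-Mmp2 at the cell surface, had 44.0 and 25.6 RPKM in WT against 57.0 and 29.9 RPKM. The libraries of a group differed more than the groups did, which overlapped (log2 fold change 0.29, SE 0.53). Mmp19, which cuts basement membrane proteins, had 17.4 and 23.4 RPKM in WT against 28.4 and 19.97 RPKM, again with overlap. The membrane-type enzymes Mmp15 and Mmp17 had log2 fold changes of -0.73 and -0.57, each set by WT library 1, which held 18 and 20 reads of them beside 3 to 11 in any other library. Mmp12, Mmp23 and Mmp28 had log2 fold changes between 0.03 and 0.13.

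Among the Adamts enzymes those that cut proteoglycans had the most signal. Adamts1, which cuts versican and aggrecan and is an early response gene, had 48.2 and 42.4 RPKM in WT against 121 and 43.9 RPKM. KO-labelled library 1 stood alone, the other 3 values lying between 42.4 and 48.2 RPKM, and without that library the log2 fold change of 0.68 (SE 0.59) became -0.04. Adamts4, an aggrecanase, had 57.6 and 19.4 RPKM in WT against 30.7 and 16.7 RPKM, and Adamts9, a versican-cutting enzyme, had 11.9 and 3.95 RPKM against 11.5 and 8.47 RPKM. The WT libraries enclosed both KO-labelled libraries in Adamts9 and 1 of them in Adamts4. Adamts5, the other main aggrecanase, was lower in level at 2.92 and 1.38 RPKM against 3.88 and 3.79 RPKM, with no overlap between the groups and a log2 fold change of 0.66 (SE 0.44).

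Both tested procollagen N-proteinases, which trim fibrillar procollagens, had negative log2 fold changes with the deposited scaling and positive ones after scaling to an equal RPKM sum. Adamts2 had 6.93 and 4.09 RPKM in WT against 3.07 and 3.05 RPKM, without overlap, and a log2 fold change of -0.65 (SE 0.40, limma adjusted p = 0.697). Adamts14 had a log2 fold change of -0.40 with overlapping groups, and Adamts3 had 2 reads in all. Adamts7, which cuts cartilage oligomeric matrix protein, had 11.9 and 7.43 RPKM against 11.4 and 5.72 RPKM and overlaps Tbc1d2b on the other strand. Adamts10, a partner of fibrillin, had 1.41 and 1.80 RPKM against 0.668 and 0.750 RPKM from 5 to 7 reads per library.

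The Adamts-like genes had the highest log2 fold change of all members and little signal. Adamtsl3 (chromosome 7, 82335694 to 82614450) had no read and 1.64 RPKM (6 reads) in WT against 4.70 and 3.36 RPKM (33 and 21 reads) in the KO-labelled libraries. Its WT mean of 0.822 RPKM lay under the minimum for the test, which it reached only through the KO-labelled libraries. The groups did not overlap, with a log2 fold change of 1.62 (SE 0.63, unadjusted p = 0.0432, limma adjusted p = 0.672). The unadjusted p was 0.0661 with a pseudocount of 0.1, 0.0550 with a replicate block, 0.0504 with the same protein-coding sum and 0.0503 with every gene above 0 tested (limma). Its 54 reads against 6 gave a ratio of 5.64 after scaling by library size, with an exact 95% counting interval of 2.43 to 16.0. Adamtsl1 was also higher without overlap, at 2.99 and 1.83 RPKM against 4.58 and 3.49 RPKM (log2 fold change 0.58, SE 0.41). Adamtsl4, a fibrillin-binding protein, was lower without overlap, at 4.35 and 5.56 RPKM against 3.94 and 3.54 RPKM (log2 fold change -0.32, SE 0.36), and its sign turned under 2 of the scalings and after removal of the coding GC trend.

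**Figure D2:**
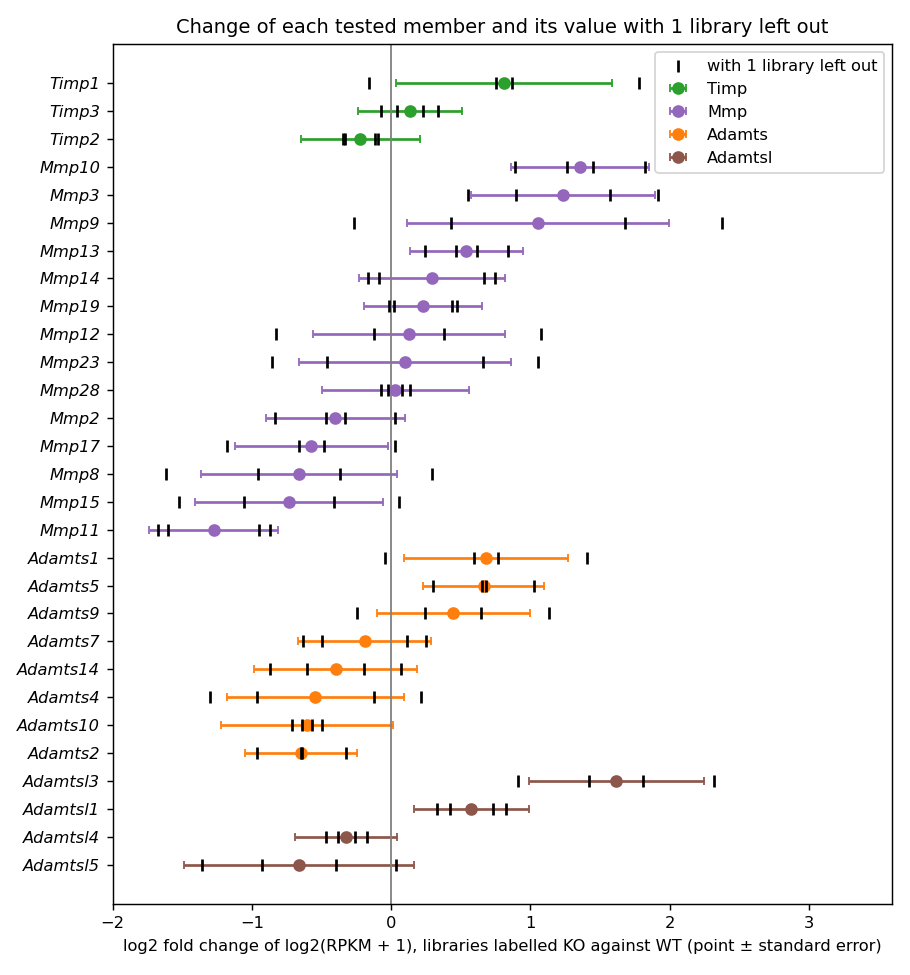
Log2 fold change of log2(RPKM + 1) for the 29 tested members, by family, as a point with its standard error, with black ticks for the 4 values obtained when 1 library was left out. The ticks of 18 members lie on both sides of 0, while those of the other 11, among them Mmp3, Mmp10, Mmp11 and Adamtsl3, stay on 1 side.

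As a whole, the 50 members took 0.592% and 0.618% of protein-coding reads in WT and 0.807% and 0.600% in the KO-labelled libraries. The Mmp family alone took 0.263% in both WT libraries, 0.374% in KO-labelled library 1 and 0.265% in library 2. The sum over the families was thus higher in KO-labelled library 1, whereas library 2 lay within the range of the WT libraries. Timp1 and Mmp3 together made up 41.8% of the members' RPKM in WT library 1 and between 73.9% and 76.8% in the other 3 libraries. Stromelysins summed to 130 and 309 RPKM in WT and 566 and 357 RPKM in the KO-labelled libraries, almost all of it Mmp3. With Timp1 and Mmp3 set aside, the other 48 members summed to 468 and 345 RPKM against 475 and 330 RPKM, and the median log2 fold change of the 27 that were tested was 0.03.

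**Figure D3:**
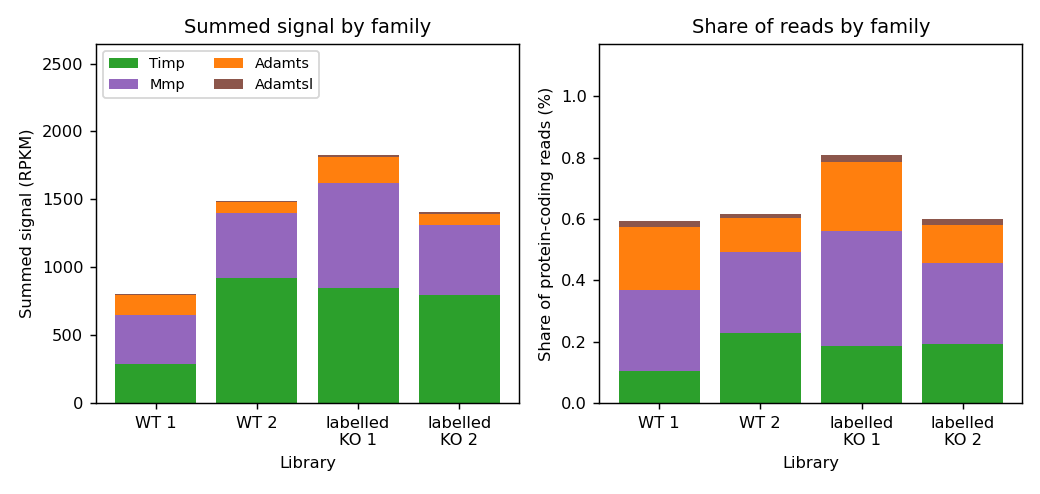
Left, the summed RPKM of each family in the 4 libraries as stacked bars. Right, the share of protein-coding reads in percent. WT library 1 has the lowest summed RPKM (804), and KO-labelled library 1 has the highest share (0.807%).

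The order of the levels depends on the length by which reads are divided. The deposited RPKM uses the whole gene model, while ribosomes protect coding sequence, and Timp2 and Timp3 have short coding sequences in long gene models. The model of Timp3 has 8144 bases with 633 coding bases. Per coding length Timp3 moved from rank 13 to rank 7 among the members, and Timp2 from rank 5 to rank 3, at 358 on the RPKM scale with coding bases in place of gene length. Timp1 and Mmp3 kept the first and the second rank, at 933 and 414 on this scale. Adamtsl4 went from rank 14 to 22. The log2 fold changes are within a gene and do not depend on this choice other than through the added constant.

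**Figure D4:**
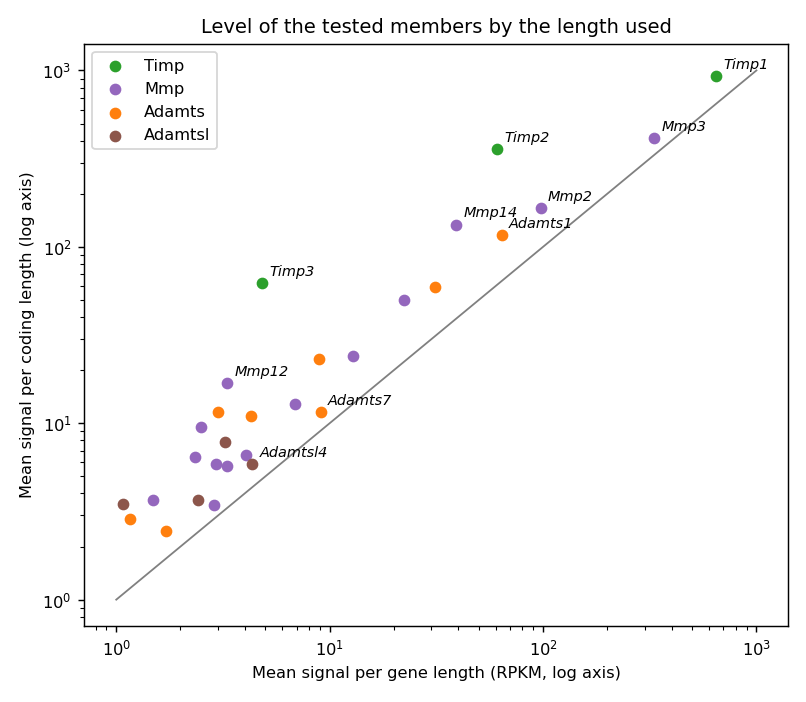
Mean level of the 29 tested members per gene length (RPKM, horizontal log axis) and per coding length (vertical log axis), coloured by family, with the line of equal values in grey. Timp2 and Timp3 lie farther above the line than any other tested member, and Timp1 and Mmp3 lead on both axes.

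Mmp3, Mmp10 and Mmp13 belong to a cluster of 9 neighbouring Mmp members on chromosome 9 (7272514 to 7699585, GRCm38), which has no other protein-coding gene of the table. Of the 5 cluster genes that were tested, 4 had a log2 fold change above 0 and 1 (Mmp8) below, with a median of 0.54, beside 0.10 for all tested members. Without WT library 1, 3 were above 0 with a median of 0.24, and without WT library 2 all 5 were, with a median of 1.08. With the coding GC trend removed 3 were above 0 and the median was 0.26. The same sum of reads gave a median of 1.11 with 4 above 0, and the same sum of RPKM 1.54 with all 5 above 0. These scalings moved the median of all genes to 0.47 and 0.81. The cluster took 0.0542% and 0.139% of protein-coding reads in WT and 0.215% and 0.146% in the KO-labelled libraries, mostly as Mmp3. These shares did not overlap, by little between library 2 of each group, and 20.1% of all genes tested separated in this direction. Genes of the cluster are known as targets of AP-1, the Jun and Fos transcription factors that respond to growth factors and stress. The AP-1 motif TGANTCA, which reads the same on both strands, was searched in the 250 bases before each RefSeq start. It occurred in 7 of the 9 cluster genes (Mmp1b, Mmp3, Mmp7, Mmp10, Mmp12, Mmp13 and Mmp20), in 0 of the 26 other members that had a promoter entry, and in 7.82% of 27025 genes. The motif TATAAA, searched on the strand of the gene, occurred in 6 of the 9, in 3 of the 26 and in 8.94% of all genes. The 80 bases before the start of the 3 clustered genes whose groups did not overlap are shown for the spacing of these letters, from RefSeq (GRCm38.p6, plus strand), with both motifs in capitals. They are chr9:7272434-7272513 for Mmp13, chr9:7445742-7445821 for Mmp3 and chr9:7502262-7502341 for Mmp10.
Mmp13: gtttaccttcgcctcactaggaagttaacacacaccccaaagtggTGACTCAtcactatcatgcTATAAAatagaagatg
Mmp3: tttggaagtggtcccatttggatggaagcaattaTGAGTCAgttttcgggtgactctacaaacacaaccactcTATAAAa
Mmp10: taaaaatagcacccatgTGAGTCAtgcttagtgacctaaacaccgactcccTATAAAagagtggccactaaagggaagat
A match of letters is a description and says nothing of binding in these cells. Of the cluster genes with the AP-1 letters, Mmp1b and Mmp7 had no read and Mmp20 had 1. In Mmp1b, 24.2% of the 28-base words of the coding sequence also occur in Mmp1a, which is not among the members.

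**Figure D5:**
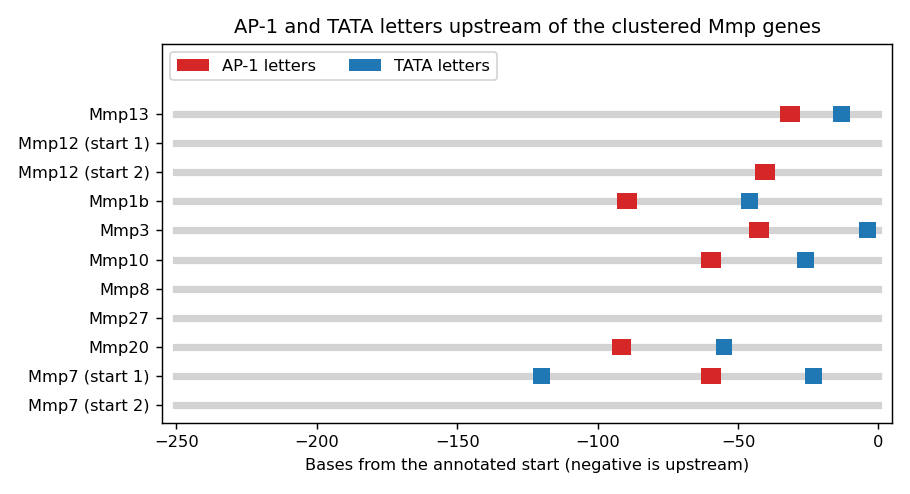
Position of the AP-1 letters (red) and TATA letters (blue) in the 250 bases before each annotated start of the 9 clustered Mmp genes, in bases from the start. The AP-1 letters begin between 95 and 35 bases before the start in 7 genes.

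The factor eIF5A is known for helping ribosomes through consecutive prolines, so the members were also read by their proline codons. A run of at least 3 consecutive proline codons was found in 18 of the 50 members (36.0%), against 20.1% of 21300 protein-coding genes with a complete coding sequence. It was found in 12 of 19 Adamts, 4 of 22 Mmp, 2 of 5 Adamtsl and 0 of 4 Timp genes. The runs of Adamtsl4 (5 codons) and Adamts2 (4 codons), the longest of tested members, are shown to make plain what lies behind the count. Those of Adamts4 and Mmp15 (3 codons) are examples of the others. Each run is in capitals, with 3 codons to either side in lower case. The runs begin at codon 791 in Adamtsl4, 22 in Adamts2, 472 in Adamts4 and 348 in Mmp15, and the run of Adamts2 lies next to leucine codons near the start of its coding sequence.
Adamtsl4: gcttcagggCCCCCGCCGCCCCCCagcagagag
Adamts2: ctgctgctgCCGCCGCCGCCTctcctgctg
Adamts4: ccacagctgCCACCGCCCtgtgctgcc
Mmp15: aaaccagggCCCCCACCCcagccccga
Of the 8 tested members with such a run, 7 had a log2 fold change below 0 (Adamts2, Adamts4, Adamts10, Adamts14, Adamtsl4, Mmp15 and Mmp17) and 1 above (Adamtsl3), with a median of -0.56. Of the 21 without, 15 were above 0 and 6 below, with a median of 0.23. Without KO-labelled library 1, 9 of these were above 0 and 12 below, with a median of -0.042. Over all tested protein-coding genes the medians were -0.13 for 2518 genes with a run and 0.12 for 7252 without. Of these, 41.6% and 57.3% had a log2 fold change above 0, so the direction of the split was not particular to the members. Base composition moved with this division. The median GC content of the coding sequence was 60.1% for the 8 members and 54.8% for the 21, and across the 29 members the Spearman correlation of log2 fold change with coding GC was -0.60, beside -0.36 across 9869 protein-coding genes, which share the 4 libraries and are not independent. After removal of the coding GC trend the medians were -0.20 and 0.29, with 6 of 8 below 0. Without WT library 1, 4 of the 8 were below 0 and the median was -0.15, beside 0.11 for the 21 without a run. Scaled to the same sum of RPKM, 6 of the 8 were above 0 with a median of 0.20, beside 0.69 for all protein-coding genes with a run. The 21 without a run then had a median of 1.26, beside 0.94 for all protein-coding genes without one.

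The other genes that activate, block or accompany these enzymes were then read from the same fit. None passed an adjusted p of 0.05 by limma in any of the 5 lists. Of the 49 tested genes, 1 was lower (2.04%) and 4 were higher (8.16%) at an unadjusted p under 0.05, against 4.46% and 2.86% of all genes. Among these 4, Serpinb2 and Tfpi2 had no read in WT and reached the minimum of 1 RPKM only through the KO-labelled libraries. For reference, 50.0% of all genes tested and 53.1% of the protein-coding ones had a log2 fold change above 0. In the plasminogen system, whose protease plasmin activates Mmp precursors, all 6 tested genes (of 8 listed) had a log2 fold change above 0, with a median of 0.85. The urokinase receptor Plaur had 10.1 and 84.3 RPKM in WT against 52.7 and 67.2 RPKM, and urokinase itself, Plau, had 23.1 and 43.0 RPKM against 66.6 and 56.0 RPKM. Plau did not overlap between the groups, and Plaur did. Serpinb2 had no read in WT and 17 and 3 reads in the KO-labelled libraries (unadjusted p = 0.0292).

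Of 12 activators and cell-surface partners, 10 were above 0 and 2 below, with a median log2 fold change of 0.20. The Mmp inducer Bsg, the syndecan Sdc4 and the clearance receptor Lrp1 had the most signal, with log2 fold changes of 0.10, 0.04 and 0.03. Itgav, the integrin chain that holds Mmp2 at the cell surface, had 11.9 and 11.7 RPKM in WT against 34.9 and 23.9 RPKM (log2 fold change 1.23, unadjusted p = 0.0240, limma adjusted p = 0.665). Furin, which cuts the membrane-type Mmps and Mmp11 to their active form, had 28.6 and 11.8 RPKM against 7.57 and 11.1 RPKM. Of 15 tested proteases of other families, 9 were above 0 and 6 below. Their most read genes were the cathepsins Ctsb and Ctsl and the secreted serine protease Htra1. Its relative Htra3 had 13.8 and 10.0 RPKM in WT and 0.248 and 4.46 RPKM in the KO-labelled libraries (log2 fold change -2.29, unadjusted p = 0.0201, limma adjusted p = 0.660).

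Among 14 tested matrix substrates, 10 were above 0 and 4 below, with a median of 0.54. Thbs1, Col4a1 and Tnc had the most signal, with log2 fold changes of 0.67, -0.19 and 0.60. Vcan, the proteoglycan that Adamts1, Adamts4, Adamts5 and Adamts9 cut, had 2.41 and 2.50 RPKM in WT against 16.5 and 6.68 RPKM, from 21, 17, 217 and 78 reads. Its groups did not overlap (log2 fold change 1.75, SE 0.49, unadjusted p = 0.0126, limma adjusted p = 0.635). Of the other inhibitors, Col18a1 had 30.0 and 20.6 RPKM against 27.8 and 16.0 RPKM, and Tfpi2, a secreted serine protease inhibitor, had no read in WT and 6 and 7 reads in the KO-labelled libraries (unadjusted p = 0.00560, limma adjusted p = 0.554).

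Markers of cell types were read beside these values. All 10 myoblast markers had reads, Pax7 itself 30 and 10 in WT and 5 and 7 in the KO-labelled libraries. The 10 myoblast markers summed to 350 and 214 RPKM in WT against 121 and 136 RPKM, with 9 of 10 below 0 and a median log2 fold change of -1.15. The fibroblast markers summed to 641 and 440 RPKM in WT against 1089 and 519 RPKM, 10 of 12 tested being above 0, and Tcf21 was listed at 0. Endothelial markers were above 0 in 9 of 9 tested genes and summed to 229 and 317 RPKM against 346 and 399 RPKM. The 14 macrophage and neutrophil markers, cells known for Mmp8, Mmp9 and Mmp12, summed to 52.3 and 83.6 RPKM against 82.5 and 54.4 RPKM, and Aif1, Itgam and Mpo were listed at 0. Tendon markers summed to 133 and 128 RPKM against 238 and 177 RPKM, smooth muscle and pericyte markers to 169 and 130 RPKM against 106 and 114 RPKM, and glial markers to 59.0 and 17.9 RPKM against 36.3 and 25.9 RPKM. The part of these cell types in the members' differences was not tested. In bulk samples, fewer cells of a type and less ribosome-protected signal per cell cannot be told apart.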

How the data were processed

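Ribosome profiling (called Polysome-Seq in the sample titles) of 2 WT libraries and 2 libraries labelled KO was analysed. The study describes polysome sequencing and ribosome profiling as separate assays, and the values are read here as ribosome profiling. Per the study's methods, the authors removed low-quality, rRNA and tRNA reads, mapped with Tophat2 to an Ensembl annotation and counted with HTSeq, without stating the strand. The processing notes name mm10. The deposited values are RPKM per gene, computed by the authors. RPKM times gene length gave whole reads for 100% of values above 0 (tolerance 0.01 of a read), with library sizes that were not the read totals.

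The test was limma 3.58.1 in R 4.3.3 (lmFit, then eBayes with its trend option) on log2(RPKM + 1). Genes entered at 1 RPKM or more on average, with Benjamini-Hochberg adjustment over all 11363 genes, after checking on simulated data. Fold changes on this scale understate those of weakly read genes. The table gave each member the coordinates it has in GENCODE M21 (50 of 50), and 35 of 50 had a RefSeq promoter. Values in every library are given for members with a mean of at least 5 RPKM or an unadjusted p under 0.05, and others as examples. For the lists, genes with an unadjusted p under 0.05 and the 3 most read were named, except where a gene is not reported here. Furin was named outside this rule after its values were seen. In the table, 1 matching row that was not protein-coding was left out. Alternatives in pseudocount, filter, scaling, tool, block, GC correction and libraries used are given in the closing section. The members and lists were chosen with earlier results of these data known.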

Additional observations from a re-analysis of the deposited data

How the results depend on the processing

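Over 17 alternatives, no member passed an adjusted p of 0.05, the lowest being 0.279 (Adamtsl3, with the trend on coding GC removed and a replicate block). Over all genes limma-voom on the recovered reads called 39 lower and 0 higher, and the GC correction with the block 40 and 52, against 11 and 1 by limma. The same sum of RPKM called 11 and 7, and the same protein-coding sum and quantile normalization 11 and 1 each. The other 12 alternatives called 0 in either direction, among them the GC correction alone, the block alone and each fit without 1 library. Over 11363 genes, the deviations of replicate 1 from its group mean correlated at 0.06 between WT and the KO-labelled libraries. This single correlation cannot exclude a pairing of the libraries. In limma the replicate block left 0 members at an adjusted p of 0.05 and 2 instead of 3 at over 2-fold with an unadjusted p under 0.05. That count was 1 when genes with any signal were tested, 1 when the minimum was 5 RPKM, 5 with quantile normalization (Mmp3 and Timp1 added), 5 with the same sum of RPKM (Mmp3, Mmp13 and Timp1 added, Mmp11 lost), and from 0 (without WT library 1, or without KO-labelled library 1) to 5 (without WT library 2) with a library left out. By limma-voom on the recovered reads the count was 3, with Mmp3 added and Mmp10 under its minimum of reads. With the GC correction and the block it was 4 (Mmp9 added). Of the 3 members of the main fit, Adamtsl3 was lost with a pseudocount of 0.1, the block or the same protein-coding sum. Mmp10 was lost with the GC trend removed (limma unadjusted p = 0.0517). Mmp11 was lost without the mean trend of the variance (0.0527) or with the same sum of reads. Adamtsl3 and Mmp10 were both lost when genes with any signal were tested. With a library left out, the lone library of a group is assumed to vary like the others.

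Over all genes, the 2-fold rule with an unadjusted p gave 488 lower and 303 higher, 168 and 1575 with the same sum of reads (members 0 and 4) and 98 and 1640 with the same sum of RPKM (members 0 and 5). The same sum of reads moved the median of all genes to 0.47, and the log2 fold changes of Mmp2, Timp2, Adamts4, Adamts7 and Adamtsl4 to 0.21, 0.38, 0.044, 0.35 and 0.18. The same sum of RPKM, an alternative chosen after seeing the data like the GC correction with the block, moved that median to 0.81 and these members to 0.67, 0.84, 0.48, 0.75 and 0.54, and put Adamts2, Mmp8, Mmp17 and Adamts14 at 0.17, 0.17, 0.056 and 0.23. All these lay below the moved medians except Timp2 with the same sum of RPKM. With the GC trend removed, with or without the block, Adamtsl4 was at 0.058 and Mmp12 at -0.22, and with the same protein-coding sum Mmp28 was at -0.037. The cause of these reversals was not tested. Mmp3, Mmp10, Mmp13, Adamts5, Adamtsl1 and Adamtsl3 stayed above 0 and Mmp11 and Adamts10 below 0 under each alternative that gave a value, although the same sum of RPKM moved Mmp11 to -0.40, Mmp10 to 2.05 and Adamtsl3 to 2.37. Adamtsl3 was at 3.29 with a pseudocount of 0.1 and at 3.55 by limma-voom, and Mmp10 at 1.89 with that pseudocount.

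With a library left out, 18 members took both signs. The ranges were -1.53 to 0.058 for Mmp15, -1.36 to 0.034 for Adamtsl5, -1.62 to 0.29 for Mmp8, -1.18 to 0.031 for Mmp17, -1.30 to 0.22 for Adamts4, -0.83 to 0.030 for Mmp2, -0.87 to 0.071 for Adamts14, -0.63 to 0.25 for Adamts7, -0.075 to 0.14 for Mmp28, -0.86 to 1.06 for Mmp23, -0.83 to 1.08 for Mmp12, -0.070 to 0.33 for Timp3, -0.014 to 0.47 for Mmp19, -0.16 to 0.74 for Mmp14, -0.25 to 1.14 for Adamts9, -0.042 to 1.403 for Adamts1, -0.16 to 1.78 for Timp1 and -0.27 to 2.38 for Mmp9. Among the other 11, Mmp3 ran from 0.55 (without WT library 1) to 1.92 (without WT library 2), Mmp10 from 0.89 (without KO-labelled library 1) to 1.82 (without KO-labelled library 2), Adamtsl3 from 0.91 (without WT library 1) to 2.32 (without WT library 2), Mmp13 from 0.24 (without WT library 1) to 0.84 (without WT library 2), Adamts5 from 0.30 and Adamtsl1 from 0.33 (without WT library 2) to 1.02 and 0.82 (without WT library 1), Adamts2 from -0.97 (without WT library 2) to -0.33 (without WT library 1), Adamts10 from -0.71 to -0.49, Adamtsl4 from -0.47 to -0.18, Timp2 from -0.35 to -0.094 and Mmp11 from -1.68 to -0.87.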
